A study of Homo sapiens with 3 samples.

Results

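The stretches of the genome around TCF4, TCF3 and ID3 were examined in SC1, a human lymphoma line labelled DLBCL (diffuse large B-cell lymphoma). The lists give H3K27ac, the acetylation of histone H3 at lysine 27 that marks promoters and enhancers in use, and CREBBP, a lysine acetyltransferase that can deposit it. Members were all listed intervals that overlap a gene body (hg19) extended by 20 kb for TCF4 and TCF3 and by 80 kb for ID3. These were 36 of 18263 H3K27ac regions and 99 of 215598 CREBBP peaks. The series holds 3 chromatin immunoprecipitation sequencing samples: a CREBBP ChIP, an H3K27ac ChIP and an input made with no antibody. Each group had 1 sample, and the labels name no treatment, genotype or time; the words DMSO and rep2 stand in the names of listed peaks without explanation. The study title concerns CREBBP-deficient DLBCL, but no sample is labelled so. No value has a replicate error and no test was possible. The members were selected on position, and TCF4 was also chosen by the covered length of its H3K27ac domain, the largest of the list, so that rank is a description. The B-cell identity of the line was not checked against marker genes, since no gene table of the build of the lists was at hand.

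TCF3 (also called E2A) and TCF4 (E2-2) encode E proteins, basic helix-loop-helix transcription factors that bind DNA as dimers at the E-box, the letters CANNTG. ID3 encodes a helix-loop-helix protein without the basic region: it pairs with E proteins and keeps them from DNA. In B cells, E proteins are known to drive immunoglobulin genes and germinal-centre growth. Mutations that disable ID3 or free TCF3 from it recur in Burkitt lymphoma, and gains of the chromosome arm that carries TCF4 recur in DLBCL.

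The sequences just upstream of annotated starts of these genes were read, and whether any of these starts is in use in this line was not examined. RefSeq start windows (GRCh38.p14) were matched by symbol, with 10 windows for TCF4, 1 for TCF3 and 1 for ID3, all on the minus strand. The 250 bases before each start were searched for CANNTG, a motif that reads the same on both strands. It occurred in 5 of the 10 TCF4 windows, once in each, and not in the windows of TCF3 or ID3. Of all 35116 windows in the table, 61.8% held at least 1. None of the 12 windows held CAGCTG or, on either strand, the form CAGGTG, both of which E proteins are known to favour and at least 1 of which occurred in 28.7% of all windows. A window without these letters says nothing of E-protein binding elsewhere in the gene. The windows shown are printed 5′ to 3′ with E-boxes in capitals. For TCF4 they are the one before the outermost start and the one that holds CACGTG, the form MYC with MAX is known to favour. The single windows of TCF3 and ID3 follow, the genes whose outer 5′ end lay in an H3K27ac region.
TCF4 outermost start, chr18:55635958-55636207, minus strand: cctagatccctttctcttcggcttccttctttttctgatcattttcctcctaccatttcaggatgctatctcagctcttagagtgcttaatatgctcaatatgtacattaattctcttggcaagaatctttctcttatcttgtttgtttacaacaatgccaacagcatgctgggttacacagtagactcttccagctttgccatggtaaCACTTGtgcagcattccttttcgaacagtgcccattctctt
TCF4 start with CACGTG, chr18:55588618-55588867, minus strand: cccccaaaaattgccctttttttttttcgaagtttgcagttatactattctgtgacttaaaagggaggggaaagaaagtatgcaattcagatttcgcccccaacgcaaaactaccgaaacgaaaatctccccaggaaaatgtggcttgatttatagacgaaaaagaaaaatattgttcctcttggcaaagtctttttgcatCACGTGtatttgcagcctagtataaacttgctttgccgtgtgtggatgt
TCF3 start, chr19:1652616-1652865, minus strand: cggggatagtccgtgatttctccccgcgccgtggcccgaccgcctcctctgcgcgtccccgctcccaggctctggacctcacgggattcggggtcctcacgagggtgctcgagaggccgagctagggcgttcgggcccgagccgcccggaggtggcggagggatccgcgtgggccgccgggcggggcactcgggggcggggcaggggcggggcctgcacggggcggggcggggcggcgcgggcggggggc
ID3 start, chr1:23559502-23559751, minus strand: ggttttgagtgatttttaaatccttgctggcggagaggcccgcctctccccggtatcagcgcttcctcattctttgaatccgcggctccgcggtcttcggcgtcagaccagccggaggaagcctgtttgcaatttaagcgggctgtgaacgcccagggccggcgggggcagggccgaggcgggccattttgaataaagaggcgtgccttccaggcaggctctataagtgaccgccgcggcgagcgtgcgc
The bases G and C made up 79.6% of the TCF3 window, 62.0% of the ID3 window, 40.8% of the outermost TCF4 window and 39.2% of the TCF4 window with CACGTG, against a median of 58.0% over all windows. Over the 10 TCF4 windows this share ranged from 34.4% to 68%, on both sides of that median, so the printed ones do not stand for all. These windows belong to another build than the lists, so they were not placed on the peaks. All positions from here on are on hg19, and each gene's 5′ end is the higher end of the gene body in the rule.

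All 3 loci carried broad H3K27ac, in different places relative to the gene. At TCF4 the mark lay inside the gene body, from 74.4 kb on, and no region was listed at its outer 5′ end. The inner annotated starts of TCF4 were not placed on the regions. At TCF3 the mark covered the 5′ end and the upstream side. At ID3 it reached far upstream of a very short gene. TCF4 had 16 regions covering 69.5 kb, 14.4% of its window of 482 kb. TCF3 had 7 regions covering 20.4 kb, the last of which ran past the window's edge; the 19.8 kb within the window was 23.9% of its 83.0 kb. ID3 had 13 regions covering 54.2 kb, 33.5% of its window of 162 kb.

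Region by region, the fold of the mark was near the median of the list. The authors' fold enrichment, the ratio of ChIP signal to expected background as a mean over a region, had a median of 4.90 at TCF4 (range 1.02 to 9.04), 4.84 at TCF3 (2.24 to 7.76) and 5.08 at ID3 (1.46 to 14.2), against 4.92 over the whole list. Fold was above that list median in 8 of 16 regions at TCF4, 3 of 7 at TCF3 and 7 of 13 at ID3. Median region widths were 2872.5 bp at TCF4, 2711 bp at TCF3 and 1962 bp at ID3, against 1423 bp over the list. The regions of these loci were wide at the median and of middling fold.

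TCF4, which is required for plasmacytoid dendritic cells and is also expressed in B cells, had its H3K27ac gathered in 1 intragenic domain. After regions within 12500 bp of each other were joined, the domain ran on chromosome 18 from 53082808 to 53179199, a span of 96.4 kb of which 55.9 kb was covered by 11 regions. It lay from 153 to 249 kb inside the gene and held 80.5% of the H3K27ac-covered length of the window. Among 13232 domains it ranked 1 by covered length. The next, on chromosome 22, covered 50.9 kb and the one after that, on chromosome 8, covered 48.0 kb, so the lead of TCF4 was 5.09 kb. Its length-weighted mean fold of 4.25 was above that of 21.8% of the 662 wide domains, the top 5% by covered length, whose median was 5.79. The domain was large by length and not by fold.

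Within this domain the regions differed in shape. The widest spanned 16474 bp, from 53104296 to 53120769 on chromosome 18, with a fold of 3.98, and ranked 32 by width in the whole list. The second, 10373 bp from 53082808 to 53093180, had a fold of 3.77. The third, 7325 bp from 53129213 to 53136537, had the lowest fold of the domain, 2.56, and the fourth, 6455 bp from 53172745 to 53179199, had 3.15. The narrowest region was the strongest of the domain: 364 bp from 53158567 to 53158930, with a fold of 8.08. Close to it lay a region of 1592 bp from 53155794 to 53157385 with a fold of 6.69. Fold is a mean over each region, so a narrow region is not averaged over its flanks. Over the 16 regions of the window width and fold had a Spearman rho of -0.044, against 0.090 over the 18263 regions of the list, given as a description across regions of 1 library.

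The strongest TCF4 region stood apart from the domain, towards the 5′ end. It covered 5727 bp from 53251867 to 53257593 with a fold of 9.04, above 80.4% of the list, and lay 74.4 to 80.2 kb inside the gene. With its neighbour of 4732 bp and fold 2.24 it formed a domain of 10.5 kb covered that ranked 396. It was also the region nearest to the 5′ end of the gene body, which no H3K27ac region or CREBBP peak covered. The RefSeq table gives a TCF4 gene of 414 kb, shorter than the 442 kb used here, and several starts, so the outer 5′ end is not the only annotated start. Those starts are on another build, so whether any of them lay in an H3K27ac region was not examined. The 20 kb added on either side of the gene held no region. The nearest regions beyond the window were 985 kb away on the 3′ side (1336 bp, fold 1.87) and 94.8 kb away on the 5′ side (1201 bp, fold 2.54), and the outermost ones inside it were 66.4 and 94.4 kb from those edges.

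The TCF4 window held 78 CREBBP peaks, and 25 of them overlapped an H3K27ac region by at least 1 bp. That share was 32.1% (exact Clopper-Pearson 95% interval 21.9 to 43.6%), where 5.06% of all CREBBP peaks did. TCF4 was chosen for its covered length, with 14.4% of its window covered, so this share is a description only. The covered share of the whole genome was not computed, so the shares inside are not compared at equal coverage. Per kb covered by H3K27ac, there were 0.360 inside peaks at TCF4, against 0.319 over the whole list. Seen from the mark, 11 of 16 regions held a CREBBP peak (68.8%, 41.3 to 89.0%), against 49.0% of all regions. These intervals cover counting error only, with each peak taken as independent of the next. A wider region can meet more peaks by its length alone, and width and number of CREBBP peaks had a rho of 0.67 over the 16 regions at TCF4 and of 0.41 over the list.

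By number, and with regions joined as above, the largest TCF4 domain held more CREBBP peaks than any other H3K27ac domain in the series, 19. The next domain by this count, on chromosome 9, held 16 peaks over 39.7 kb, of which 5 had a q of at most 0.05. No peak in the TCF4 domain reached that q, where 55.9% of the 662 wide domains held at least 1 that did and where 9 of the 10 largest domains did. Of the 12 wide domains with 10 or more CREBBP peaks, 2 held none at that q, the TCF4 domain among them. By fragments solved for the summit, its highest peak had 26, above the highest of 56.6% of wide domains, whose median was 24. Per kb covered the TCF4 domain held 0.340 CREBBP peaks, a density above that of 76.0% of wide domains, whose median was 0.236.

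**Figure D1:**
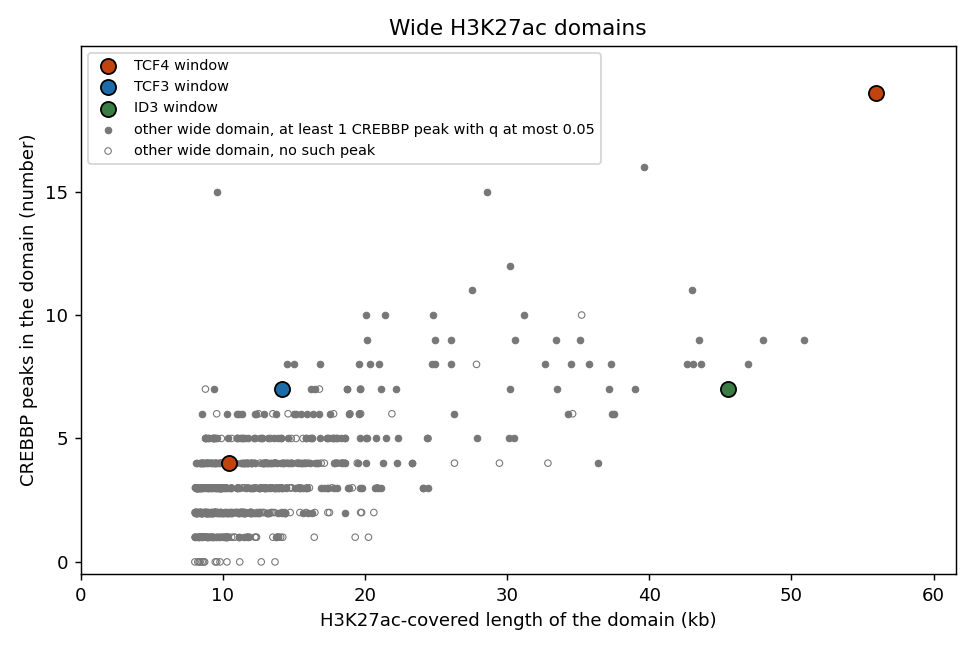
Each point is 1 of the 662 wide H3K27ac domains, by H3K27ac-covered length in kb (horizontal) and number of CREBBP peaks (vertical); coloured points lie in the TCF4, TCF3 and ID3 windows, and filled grey points are other domains holding any CREBBP peak at or under a q of 0.05. The TCF4 domain is at the far upper right with 55.9 kb and 19 peaks, and the ID3 domain has 45.5 kb and 7 peaks.

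The TCF4 peaks inside H3K27ac had few fragments at their summits, and their fold was near that of the list. The number of fragments and the expected background at a summit were solved from the deposited fold and p of each peak, as inferences. The 25 inside peaks had a median of 9 fragments (interquartile range 8 to 12, range 6 to 26) over a median background of 3.70. Over all 10903 inside peaks of the list the median was 16 fragments (11 to 23) over a background of 6.87. Median fold was 2.24 for the TCF4 peaks and 2.15 for the list. None of the 25 reached a q of 0.05 (0%, exact 95% interval 0 to 13.7%), where 20.2% of all inside peaks did. The list held 2396 inside peaks with a background within the interquartile range of the TCF4 peaks, 2.52 to 4.62 fragments. Of these, 17.7% reached that q. The 25 TCF4 peaks were not limited to that range, with backgrounds from 1.30 to 13.9, so these shares are not like for like. On chromosome 18 as a whole 41 of 270 inside peaks reached that q, 15.2%, with a median of 14 fragments over 5.84.

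Single CREBBP peaks at TCF4 show the range. The most fragments, 26, stood at chromosome 18 from 53090829 to 53091265, in the second widest region of the domain, over a background of 12.9 and with a fold of 1.94. The next, 22 fragments, stood at 53257118 to 53257444 in the strongest region over a background of 13.9, with a fold of 1.55. Both sites thus combined the highest counts with the highest backgrounds of the window. Then came peaks with 13 fragments at 53156808 to 53157073 (fold 2.98) and at 53255602 to 53255914 (fold 2.23). The peak with the largest fold inside a region, 3.50, was 1451 bp wide, from 53158043 to 53159493, and covered the whole of the narrow 364 bp region that had the highest H3K27ac fold of the domain. It held 9 fragments over 1.86, with a −log10 q of 1.00.

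The strongest CREBBP peak at TCF4 lay outside the mark. It ran from 53243470 to 53244154 with a fold of 4.21, 12 fragments over 2.08 and a −log10 q of 2.47, and was the single peak of the window with q of at most 0.05 (1.28% of 78, exact 95% interval 0.032 to 6.94%), against 1.81% of the whole list. It was 1 of 53 TCF4 peaks outside the mark, and 0.829% of all outside peaks in the list reached that q. It lay 1819 bp from the nearest H3K27ac region, the one of fold 2.24, and 88.4 kb inside the gene. Another peak outside, from 52976583 to 52976889, had a fold of 3.79 with 8 fragments over 1.37 and a −log10 q of 1.19, just short of that limit. The CREBBP peak nearest to the 5′ end of the gene body ran from 53326723 to 53327042, with 6 fragments over 1.85.

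CREBBP peaks outside H3K27ac were frequent along TCF4. The 53 outside peaks had a median of 5 fragments over a background of 1.79, against 5 over 1.30 for all outside peaks of the list. Their density was 12.8 per 100 kb of stretch without H3K27ac, against 7.64 on chromosome 18 and 6.82 over the list. For the chromosome and the list, length was counted up to the last listed interval. Stretches where no read can be placed were not removed, which can lower those values. On the 3′ side of the domain 35 peaks lay in 213 kb, 16.4 per 100 kb, and 33 of them were outside the mark. The span of the domain had 21 peaks, 21.8 per 100 kb, of which 2 were outside. The 5′ side had 22 peaks in 173 kb, 12.7 per 100 kb, of which 18 were outside. The peaks on the 3′ side had a median of 5 fragments, and none there had q of at most 0.05. In the window, 57 of the 78 TCF4 peaks had a −log10 q of 0. The same count was not made over the whole list, so it does not set this locus apart.

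TCF3, the E protein from which the splice forms E12 and E47 come, showed another layout, with the mark over its 5′ end and 2 of the 4 stronger CREBBP peaks of the window there. One H3K27ac region overlapped the gene body and covered the 5′ end: 6912 bp at chromosome 19 from 1646654 to 1653565, with a fold of 5.91, reaching 1.24 kb upstream. The rest of the gene body, 37.4 kb on its 3′ side, held no region. The region covering the 5′ end carried 3 CREBBP peaks. The peak that covers the 5′ end itself ran from 1652127 to 1653351 with 35 fragments over 12.01 and a fold of 2.77. A peak from 1648568 to 1649285, 3.62 kb inside the gene, had 33 fragments over 12.9 and a fold of 2.44. The one between them, from 1650561 to 1651552, had 16 fragments over 6.35, and its −log10 q of 0.288 was short of the limit that the other 2 passed, at 3.58 and 2.15. CREBBP peaks took up 42.5% of the length of this region.

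Upstream of TCF3 lay 4 more regions covering 7.27 kb. The widest of these, 4408 bp from 1665556 to 1669963, had a fold of 4.84 and held 2 CREBBP peaks, with 26 fragments over 9.85 (fold 2.49, −log10 q 1.51) and 19 over 10.2 (fold 1.79). The last, 1193 bp from 1671685 to 1672877 with a fold of 2.54, held a peak of 14 fragments and met another that began 0.351 kb beyond the edge of the window (fold 1.995). The nearest H3K27ac regions beyond the window were 20.5 kb away on the 3′ side (1899 bp, fold 2.25) and 140 kb away on the 5′ side (1601 bp, fold 7.17). The regions from 1660656 to 1661757 (1102 bp, fold 3.98) and from 1663929 to 1664490 (562 bp, fold 2.24) held none. Joined with the region over the 5′ end they made a domain of 14.2 kb covered, which ranked 204 and held 7 CREBBP peaks, 3 with q of at most 0.05. Its density of 0.494 per kb was above that of 95.6% of wide domains.

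On the 3′ side of TCF3, past the end of the gene, lay 2 stronger regions. One, 3494 bp from 1604423 to 1607916, had the highest fold of the window, 7.76, and a CREBBP peak of 20 fragments over 10.2. The other, 2711 bp from 1590816 to 1593526, had a fold of 6.50 and the strongest CREBBP peak of the window, from 1592167 to 1593130, with 36 fragments over 11.7, a fold of 2.92 and a −log10 q of 4.30. The RefSeq table lists UQCR11, a subunit of respiratory complex III, and then MBD3, a subunit of the NuRD complex, as the neighbours on this side. Their positions on hg19 were not at hand, so these regions were not assigned to a gene.

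Of the 10 CREBBP peaks in the TCF3 window 8 overlapped an H3K27ac region (80.0%, exact 95% interval 44.4 to 97.5%). The share was 5.06% over the list and 13.8% on chromosome 19, and 23.9% of this window was covered. The covered shares of the genome and of the chromosome were not computed, so these values are not at equal coverage. There were 0.393 inside peaks per kb covered, against 0.319 over the list. Of 7 regions 5 held a peak (71.4%, 29.0 to 96.3%), against 49.0% of all regions. The 8 inside peaks had a median of 23 fragments (range 14 to 36) over 10.2, and 4 of them had q of at most 0.05 (50%, 15.7 to 84.3%). On chromosome 19 as a whole 100 of 539 inside peaks did, 18.6%, with a median of 19 fragments over 9.16. Both peaks outside the mark had 8 fragments, a density of 3.16 per 100 kb without H3K27ac.

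ID3, the inhibitor, had the H3K27ac domain that ranked 5 in the series, around a gene of 1.90 kb. The domain ran on chromosome 1 from 23875141 to 23962055, a span of 86.9 kb with 45.5 kb covered by 11 regions, and reached 75.7 kb upstream of the gene's 5′ end. Upstream regions numbered 8 and covered 37.0 kb. The length-weighted mean fold of 6.12 was above that of 57.6% of wide domains. The region over the gene, 6147 bp from 23880257 to 23886403, covered all of ID3 and ended 81 bases past its 5′ end, with a fold of 3.23. Of the 8 upstream regions, 7 had a higher fold than the region over the gene.

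The upstream regions were led by the widest of the window, 15023 bp from 23914968 to 23929990, with a fold of 7.94, which lay 28.6 to 43.7 kb upstream. The next widest, 10218 bp from 23899569 to 23909786, had a fold of 6.40 and lay 13.2 to 23.5 kb upstream. A region of 5610 bp from 23937169 to 23942778 had a fold of 6.14, and a narrow one of 704 bp from 23933089 to 23933792 had 8.59. On the other side of the gene a region of 7691 bp from 23850911 to 23858601, with a fold of 3.93, lay outside the domain. The highest fold of the window, 14.2, was at a region of 970 bp from 23810189 to 23811158, 75.2 kb from the 5′ end and above 93.7% of the list. On that side the RefSeq table lists E2F2, a cell-cycle transcription factor, and then ASAP3, and on the upstream side the lncRNA gene MDS2 and the ribosomal protein gene RPL11. The regions were not assigned among ID3 and these neighbours. The window ended in stretches without the mark: the nearest region outside was 51.9 kb from the 5′ side edge (1196 bp, fold 2.75), and the last one inside ended 4.27 kb short of it.

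CREBBP peaks at ID3 were few and stood in a small part of the covered length. Of 11 peaks 9 overlapped a region (81.8%, exact 95% interval 48.2 to 97.7%), in a window with 33.5% of its length covered. The share was 5.06% over the list and 5.72% on chromosome 1, not at equal coverage, as at the other loci. There were 0.166 inside peaks per kb covered, against 0.319 over the list. Of 13 regions 5 held a peak (38.5%, 13.9 to 68.4%), against 49.0% of all regions. The ID3 domain held 7, a density of 0.154 per kb covered that was above 18.7% of wide domains, below their median, where the TCF4 domain was above it. The strongest peak, from 23945588 to 23946576 in a region of 3241 bp and fold 6.85, lay 60.0 kb upstream with 43 fragments over 12.9, a fold of 3.16 and a −log10 q of 6.53. In the widest region the 3 CREBBP peaks stood together within 2.34 kb, and the remaining 9.74 kb towards the 5′ side held none. The first of them, from 23917918 to 23918537, had 26 fragments over 10.2 and a −log10 q of 1.33, while the other 2 had 16 and 15 fragments. The region of 10218 bp held no CREBBP peak, nor did the narrow region of fold 8.59 or the one of fold 14.2.

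Over ID3 itself the only CREBBP peak in the covering region ran from 23881120 to 23881604, 4.99 kb from the 5′ end on the 3′ side of the gene, with 30 fragments over 16.7 and a fold of 1.75. It did not overlap the gene body. A peak from 23939660 to 23940037 also had 30 fragments, over 17.6, with a fold of 1.67. Both peaks had high counts, high backgrounds and low folds, like the 2 TCF4 sites above. This did not hold for every peak: the strongest at ID3 had 43 fragments over 12.9 and a fold of 3.16. In the region of 7691 bp a peak from 23851293 to 23851866 had 21 fragments over 6.47 and a −log10 q of 1.98. The peaks outside the mark, from 23833158 to 23833516 and from 23840789 to 23841134, had folds of 3.19 and 3.10 from 10 and 8 fragments, a density of 1.86 per 100 kb without H3K27ac.

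**Figure D2:**
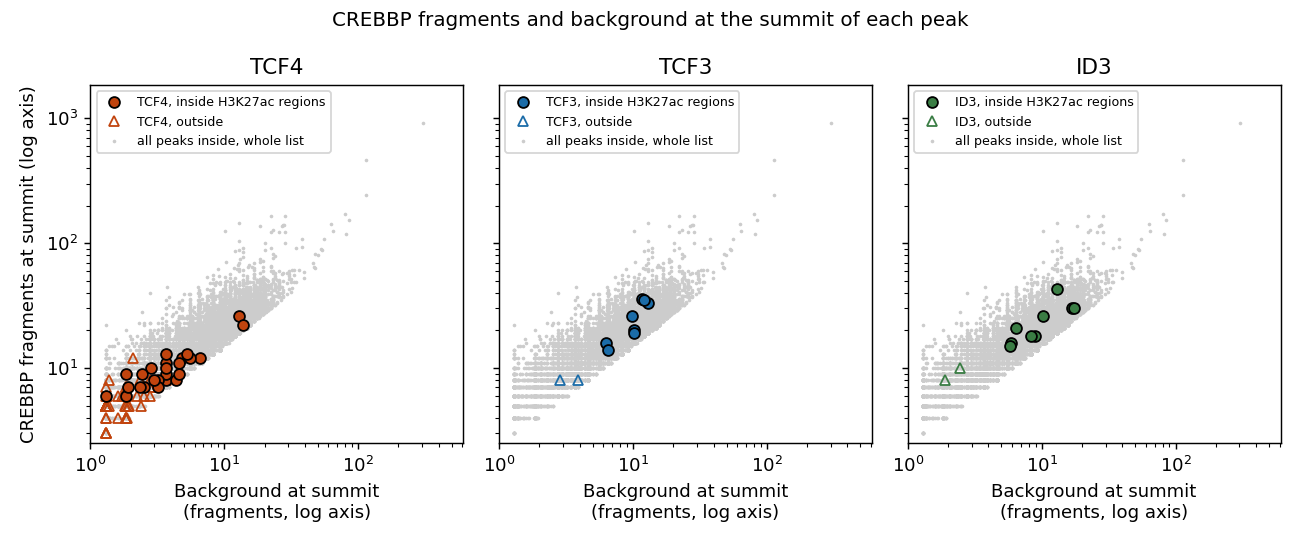
Each coloured point is 1 CREBBP peak of a locus (circles inside, triangles outside H3K27ac regions), by solved background (horizontal, log axis) and solved fragments (vertical, log axis) at the summit, and grey dots are all 10903 inside peaks of the list. Inside peaks at TCF4 have a median of 9 fragments over 3.70, at TCF3 of 23 over 10.2 and at ID3 of 21 over 8.94.

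Side by side, inside peaks had medians of 9 fragments at TCF4, 23 at TCF3 and 21 at ID3, and ranges of 6 to 26, 14 to 36 and 15 to 43, which overlap. Backgrounds differed in the same order, with medians of 3.70, 10.2 and 8.94, and median folds were 2.24, 2.38 and 2.34. The share with q of at most 0.05 was 0 of 25, 4 of 8 and 3 of 9, and the exact intervals were 0 to 13.7%, 15.7 to 84.3% and 7.49 to 70.1%. Over all inside peaks of the list it was 20.2%, and on chromosomes 18, 19 and 1 it was 15.2%, 18.6% and 23.9%. Regions that held a peak of that strength were 0 of 16 at TCF4, 3 of 7 at TCF3 and 3 of 13 at ID3, against 11.4% of all regions. Peaks of a locus share 1 library and a neighbourhood and are not replicates, so these intervals do not compare the loci as conditions. The lower fragment counts at TCF4 went with a lower background, and the part of the background in them was not tested.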

How the data were processed

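The submitters' processing notes name fastp, Bowtie2, STAR, MACS2 and build hg19; roles, versions, settings, control library and pooling are not given in the sources used. The authors deposited narrow CREBBP peaks (values at summits) and broad H3K27ac regions (values as means over a region), each with fold enrichment (a ratio), −log10 p, −log10 q and a score. The deposited score was 10 times −log10 p in the CREBBP list and 10 times −log10 q in the H3K27ac list, in all but 1 region. CREBBP peaks were listed down to a −log10 p of 1.30 whatever their q. The input was not analysed here, and the depth of the libraries is unknown.

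Chromosomes 1 to 22 and X were used. Windows came from the stated rule. The members, windows and lists were chosen with earlier results of these data known. Regions within 12500 bp were joined into domains. Fragments and background at a summit were solved from fold as (fragments + 1)/(background + 1) and p as the upper Poisson tail, which matched within 0.001 for 99 of 99 member peaks. Each group held 1 sample, so values are descriptions, beside those of the whole list. All regions were named at TCF3; at TCF4 and ID3 the 5 widest and the 3 of largest fold, with every CREBBP peak of q at most 0.05, the 3 of largest fold and of most fragments and those nearest the 5′ end. Others were named after their values were seen. TCF12, ID1, ID2, ID4 and marker genes were not analysed here. Alternatives were the gene body alone, stronger peaks or regions, another overlap and another joining distance. Code was tested on simulated data. Python 3.11.15, numpy 2.4.6, pandas 2.3.3, scipy 1.17.1 and matplotlib 3.10.9 were used.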

Additional observations from a re-analysis of the deposited data

How the results depend on the processing

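Taking the summit as the overlap left the share of CREBBP peaks inside and the share of regions holding one within their intervals at the 3 loci; asking for 50% of a CREBBP peak, run for the share inside alone, left that share within its interval. The gene body alone changed nothing at TCF4 beyond its intervals, but it left 6.91 kb covered at TCF3 and 6.15 kb at ID3, each in 1 region that held a CREBBP peak (100%). No CREBBP peak overlapped the ID3 gene body, so its share inside could not be given. Keeping the 50% of H3K27ac regions with the higher −log10 q, TCF4 kept 21.0 kb and 11.5% of its CREBBP peaks inside, while TCF3 and ID3 stayed within 1.5 times or their intervals. When CREBBP peaks needed a q of at most 0.05, the share inside was 0% at TCF4 (of 1 peak), 100% at TCF3 (of 4) and 100% at ID3 (of 3), and 0% of TCF4 regions held one. Over the whole list 2204 of the 3901 peaks with such a q lay inside, and 11.4% of regions held one. The ranks by covered length depend on joining, and the count of CREBBP peaks per domain was not repeated at other joining distances. Without joining, the largest region ranked 32 at TCF4, 380 at TCF3 and 45 at ID3. Joined within 5 kb, the domains ranked 2, 549 and 26. These shifts follow from the gaps between regions, which reach 9.91 kb inside the TCF4 domain. Few fragments limit the weak peaks: outside peaks at TCF4 had a median of 5 and an upper quartile of 6. No paired analysis was possible because no group has more than 1 sample.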
